A study of Mus musculus with 5 samples.

Results

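NFATC2 (NFAT1) peaks that the authors placed in introns were described here together with the genes that host them. The members were all peaks whose annotation named an intron, other than those of 11 genes left out by name, and there were 214 of them among 726 peaks in 4 lists. In all, 223 peaks were intronic, and the 9 left out belonged to 5 genes (*2210408I21Rik*, *Ryr3*, *Zfp979*, *Zfp987*, and *Zfp990*). The 214 peaks lay in 192 host genes. They numbered 70 in wild-type replicate 1, 52 in wild-type replicate 2, 36 in *mfn2-/-* replicate 1, and 56 in *mfn2-/-* replicate 2.

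The lists came from ChIP-seq, a method that pulls down fixed chromatin with an antibody (here anti-NFAT1) and sequences the DNA attached to it, on regenerating myofibers of the mouse tibialis anterior (TA) muscle. Both genotypes carried the *Pax7-Cre(ERT2)* driver, which acts in muscle stem cells, and the mito-Dendra2 allele, which marks the mitochondria of recombined cells. Both received 75 mg/kg tamoxifen on each of 5 days, 50 μL of 1.2% BaCl2 into the TA 2 days after the last dose, and harvest of Dendra2+ fibers 14 days post injury (dpi). The *mfn2-/-* animals also had a floxed *Mfn2* allele, deleted by the same driver, which is not named for the wild-type animals. Recombination was thus driven in muscle stem cells and reached the fibers through them, so a fiber may also hold nuclei without it, and these were not measured. There were 2 libraries per genotype, and a wild-type input library was not analysed here. The labels number the libraries as replicates without stating that they came from separate animals, so p-values measure only the spread between these libraries, which may be technical.

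NFATC2 is a calcium-dependent transcription factor. Calcineurin, a phosphatase activated by calcium, removes phosphate groups from it, and it then enters the nucleus, where NFAT proteins bind a short GGAAA core, often beside AP-1. In skeletal muscle, NFAT proteins are known for coupling nerve activity and calcium to fiber type and to the growth of new fibers. Introns can hold enhancers, and the first intron lies closest to the promoter.

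The sequence under most of these peaks was not read here, because no genome was used. Only 2 of the 214 peaks overlapped a RefSeq promoter window, which runs from 250 bases before to 50 bases after the start of a gene, and both windows are printed because they are the only sequence at hand that lies under members. The first belongs to *Gm41909*, a RefSeq gene that is not protein coding, whose start lies inside intron 9 of 20 of *Dis3l2* (ENSMUSG00000053333), a gene for an RNA exonuclease. The second belongs to *Gm30489*, also not protein coding, whose start lies inside intron 8 of 14 of *F13a1* (ENSMUSG00000039109), a gene for the A subunit of coagulation factor XIII. Capitals mark GGAAA or its reverse complement TTTCC, the 2 spellings of the NFAT core that were searched. Both sequences are from RefSeq on GRCm38.p6, 5′ to 3′ on the strand of the promoter's gene.
Gm41909, chr1:86928056-86928355, minus strand: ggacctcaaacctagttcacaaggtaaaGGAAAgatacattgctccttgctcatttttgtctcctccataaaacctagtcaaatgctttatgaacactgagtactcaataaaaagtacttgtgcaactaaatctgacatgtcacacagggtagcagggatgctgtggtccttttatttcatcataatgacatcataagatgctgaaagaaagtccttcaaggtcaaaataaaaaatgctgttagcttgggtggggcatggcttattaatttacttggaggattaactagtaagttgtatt
Gm30489, chr13:36935482-36935781, plus strand: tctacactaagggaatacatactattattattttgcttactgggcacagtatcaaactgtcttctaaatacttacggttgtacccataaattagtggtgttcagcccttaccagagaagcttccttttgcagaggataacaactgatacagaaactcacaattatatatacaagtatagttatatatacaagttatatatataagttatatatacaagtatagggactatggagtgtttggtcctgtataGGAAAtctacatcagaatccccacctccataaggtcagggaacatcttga

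The *Dis3l2* peak (chr1:86927536-86928148, mm10) was in wild-type replicate 1 with a score of 63.06, and it covered 93 bases of the *Gm41909* window. The single GGAAA of that window, at bases 29 to 33, lay outside the peak. The *F13a1* peak (chr13:36935216-36935749) was in *mfn2-/-* replicate 2 with a score of 56.53, and it covered 268 bases of the *Gm30489* window. Here the single GGAAA, at bases 251 to 255, lay inside the peak. A match is common, since 61.3% of 32851 windows of the same length hold at least 1 on either strand.

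Intronic peaks made up a like share of every list. They were 31.0% of 226 peaks in wild-type replicate 1 (95% Wilson interval 25.3 to 37.3), 24.5% of 212 in wild-type replicate 2 (19.2 to 30.7), 28.3% of 127 in *mfn2-/-* replicate 1 (21.2 to 36.7), and 34.8% of 161 in *mfn2-/-* replicate 2 (27.9 to 42.4). The groups overlapped, and the mean share was 27.8% ± 4.56 in wild-type against 31.6% ± 4.55 for *mfn2-/-* (SD, n = 2 each), a difference of 3.81 percentage points (exact permutation p = 0.67, two-sided). With the genes left out by name also taken out of the other classes it was 5.87 percentage points (exact permutation p = 0.67). Among peaks with a score of at least 60 the difference was -10.1 percentage points, with groups that do not overlap (exact permutation p = 0.33). The number of intronic peaks also overlapped between genotypes, at 61 ± 12.7 (SD, n = 2) against 46 ± 14.1, a log2 difference of -0.43 (exact permutation p = 0.67). Without *mfn2-/-* replicate 1 it was -0.11 and without *mfn2-/-* replicate 2 it was -0.74, and among peaks with a score of at least 60 it was -0.85 with groups that do not overlap (exact permutation p = 0.33). With 2 libraries against 2, no exact permutation test can go below p = 0.33. Read counts are not part of the lists. Depth is thus unknown, the number of peaks called moves with it, and its part in these numbers was not tested. The intervals cover counting error only.

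First introns held 45 of the 214 peaks (21.03%), and the share was lower in both *mfn2-/-* libraries than in either wild-type library. It was 16 of 70 peaks in wild-type replicate 1 (22.9%, interval 14.6 to 34.0), 16 of 52 in wild-type replicate 2 (30.8%, 19.9 to 44.3), 4 of 36 in *mfn2-/-* replicate 1 (11.1%, 4.41 to 25.3), and 9 of 56 in *mfn2-/-* replicate 2 (16.1%, 8.69 to 27.8). The group values did not overlap, but the intervals of single libraries did. The wild-type mean was 26.8% ± 5.59 and the *mfn2-/-* mean 13.6% ± 3.51 (SD, n = 2 each), a difference of -13.2 percentage points, with the smallest p-value that 6 splits allow (exact permutation p = 0.33, two-sided). So few libraries could not have passed any usual threshold. Later introns held 54, 36, 32, and 47 peaks in the same order of libraries.

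**Figure D1:**
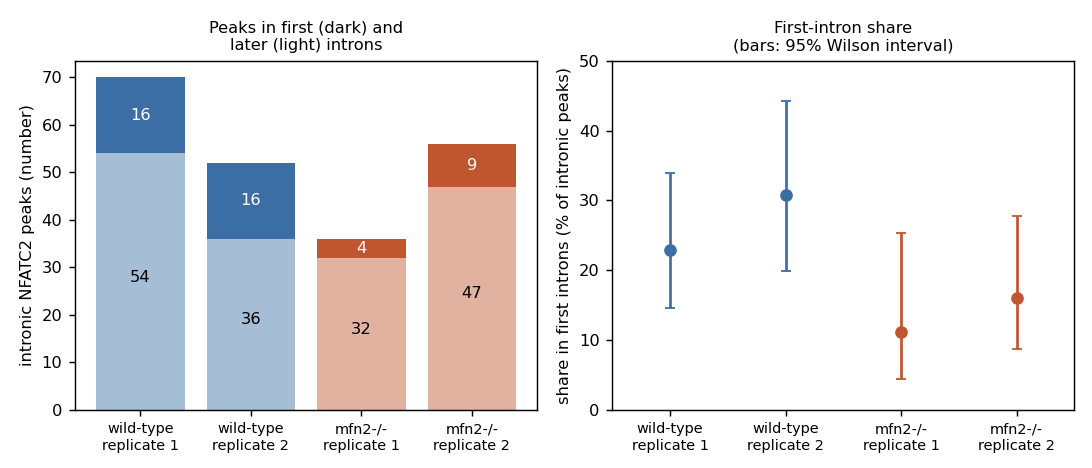
The left panel gives the number of intronic peaks in each library, with first introns in dark and later introns in light color. The right panel gives the share of intronic peaks in first introns in percent with 95% Wilson intervals, and the *mfn2-/-* points (11.1% and 16.1%) sit below the wild-type points (22.9% and 30.8%) with overlapping intervals.

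The strongest first-intron peak of each library lay in a different gene. *Akap13*, which encodes a scaffold for protein kinase A, had a peak with a score of 77.48 in intron 1 of 37 in wild-type replicate 1 (chr7:75485717-75486594). *Zc3h12c*, an RNase of the Regnase family, had 1 with a score of 66.78 in wild-type replicate 2 (chr9:52150498-52151107). *Cdon*, a cell-surface receptor that promotes myogenic differentiation, had 1 with a score of 63.42 in *mfn2-/-* replicate 1 (chr9:35442099-35442677). *Taok1*, a serine/threonine kinase, had 1 with a score of 70.72 in intron 1 of 19 in *mfn2-/-* replicate 2 (chr11:77589125-77589692). None of these 4 genes had an intronic peak in another library. Intron numbers depend on which transcript the annotation chose, and the transcripts here had a median of 12 introns.

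Beyond the first intron, peaks were spread along the whole transcript. Intron 2 held 39 peaks, introns 3 to 5 held 64, introns 6 to 10 held 39, and introns 11 and over held 27. The highest number was intron 63 of 66 in *Cfap54*, a gene for a protein of cilia and flagella, in *mfn2-/-* replicate 1. Last introns of transcripts with 2 or more introns held 16 peaks. For the 168 peaks whose host gene has a start in the RefSeq promoter table, the median distance from the peak center to that start was 82.9 kb, with a range from 1.44 to 1279 kb. Only 2 peaks lay within 3 kb of it and 15 within 10 kb, while 76 lay over 100 kb away. The authors' promoter class takes peaks up to 3 kb from a transcription start, which leaves few intronic peaks so close. First-intron peaks were closer to the start, at a median of 23.0 kb, than later ones, at 106 kb, as their position in the gene requires. Of 164 peaks placed along their gene, 21 lay in the first 20% of its length, and in steps of 20% the numbers that followed were 39, 36, 39, and 29.

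Scores were low and close together. Each score is -log10 of the p-value from peak calling, multiplied by 10. The floor of the lists at 50 thus stands for a calling p-value of 1e-05, and 60 for 1e-06. The 214 intronic peaks ran from 50.04 to 88.17 with a median of 54.56. Over the 726 peaks of all classes, 25.1% had a score of at least 60, and among intronic peaks it was 39 (18.2%). Distal intergenic peaks reached 1493.56 and promoter peaks 980.47, and 23.6% and 33.3% of them had a score of at least 60. These sets keep the genes left out by name. Without those genes the shares were 20.6% of 349 distal intergenic, 24.1% of 83 promoter, and 21.6% of all 686 peaks, closer to the 18.2% of intronic peaks, while the highest distal intergenic and promoter scores were the same. With those genes kept, the medians of distal intergenic (54.53) and promoter peaks (54.66) were close to that of intronic peaks. The 9 peaks left out by name include 2 of *Ryr3* with scores of 514.28 and 619.83, so the top of the intronic range is set by that rule.

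Within a library, the median score of intronic peaks lay above that of distal intergenic peaks in some libraries and below it in others. The median of intronic peaks minus that of distal intergenic peaks was -0.365 in wild-type replicate 1, 2.00 in wild-type replicate 2, -3.37 in *mfn2-/-* replicate 1, and 0.080 in *mfn2-/-* replicate 2. The sign was mixed, with a mean of -0.41 ± 2.22 (SD, n = 4, exact sign-flip p = 0.75, two-sided). With the genes left out by name also taken out of the distal intergenic peaks, the mean was 0.013 (exact sign-flip p = 1). First-intron peaks minus later-intron peaks gave -1.41, 2.00, 0.965, and -1.02 in the same order, with a mean of 0.134 ± 1.62 (SD, n = 4, exact sign-flip p = 1). Here too, 2 libraries were positive and 2 negative. The smallest p that 4 libraries allow is 0.125, and medians near the floor of 50 say little about the highest scores. In the same order of libraries, 17.1%, 25%, 16.7%, and 14.3% of intronic peaks had a score of at least 60. Among distal intergenic peaks, with the genes left out by name kept, it was 18.2%, 20.7%, 40%, and 25%. The intronic share was thus the higher only in wild-type replicate 2, and these shares were not tested.

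**Figure D2:**
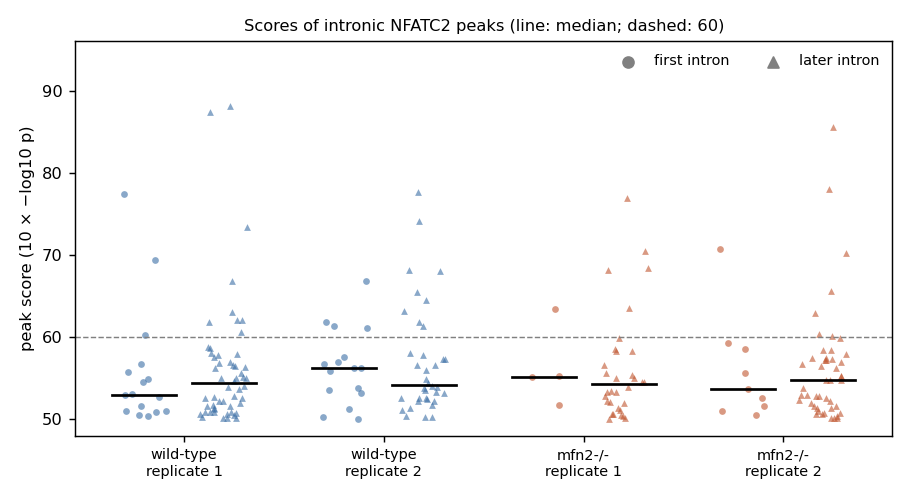
Each point is the score (10 times -log10 p) of 1 intronic peak, by library, with first introns as circles and later introns as triangles, and a line at the median. Most points lie under the dashed line at 60 in every library, and the highest are *Dpp9* (88.17) and *Tcf12* (87.39) in wild-type replicate 1.

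Between genotypes the median score of intronic peaks was 54.01 and 55.38 for wild-type, against 54.54 and 54.73 for *mfn2-/-*. The groups overlapped, with means of 54.7 ± 0.972 (SD, n = 2) and 54.6 ± 0.134 (exact permutation p = 1). Among peaks with a score of at least 60 the *mfn2-/-* mean was higher by 3.36, with groups that do not overlap (exact permutation p = 0.33). The median width was 550 and 559 bp in wild-type and 572 and 608 bp in *mfn2-/-*, which do not overlap. The means were 554.5 ± 6.36 bp (SD, n = 2) and 590.0 ± 25.5 bp (exact permutation p = 0.33, the smallest possible). Among peaks with a score of at least 60 the difference was 3.5 bp in place of 35.5 bp (exact permutation p = 1), and without *mfn2-/-* replicate 2 and without *mfn2-/-* replicate 1 it was 17.5 and 53.5 bp. Distal intergenic peaks showed the same order, with medians of 563 and 566 bp in wild-type and 588 and 616 bp in *mfn2-/-*, so the wider peaks in *mfn2-/-* libraries were not particular to introns.

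The top intronic peak of each list lay in *Dpp9*, *Cdk5rap2*, *Cacnb4*, and *Chl1*. In wild-type replicate 1, *Dpp9*, which encodes a cytosolic dipeptidyl peptidase, had a score of 88.17. It was followed by *Tcf12*, a basic helix-loop-helix partner of MyoD, with 87.39 in intron 5 of 20 (chr9:71959047-71959838), and by *Akap13*. In wild-type replicate 2, *Cdk5rap2*, a centrosomal protein, had 77.62 in intron 4 of 36 (chr4:70377991-70378618), and *Lama1*, a laminin chain of basement membranes, had 74.08 in intron 5 of 62 (chr17:67741304-67741855).

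In *mfn2-/-* replicate 1, *Cacnb4*, an accessory subunit of voltage-gated calcium channels, had 76.91 in intron 2 of 13 (chr2:52546018-52546781). *Ptprz1*, a receptor tyrosine phosphatase, had 70.50, and *Zc3h13*, a part of the complex that methylates adenosine in mRNA, had 68.45. In *mfn2-/-* replicate 2, *Chl1* had 85.52 and the noncoding RNA gene *Pard3bos1* had 78.08 in intron 2 of 4 (chr1:61770733-61771522), followed by *Taok1*. The center of the *Pard3bos1* peak lay 94.1 kb from the start of that gene, whose RefSeq span is 93.3 kb, and so outside that span. No intronic peak led its list. The best ranked 6th, 13th, 24th, and 15th in the 4 lists in the order of libraries used above. Of these genes, only *Dpp9* and *Chl1* had a peak in more than 1 library in the region concerned.

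Intronic peaks rarely recurred at the same place. Joined by an overlap of at least 1 bp, the peaks of all lists gave 680 regions, of which 4.56% had a peak in 2 or more libraries. Of the 210 regions with an intronic peak, 4 did (1.90%, interval 0.743 to 4.79). Regions of the genes left out by name account for 15 of the 31 recurring regions. Outside those genes, 2.41% of all 663 regions recurred, 2.06% of 340 distal intergenic regions (1.00 to 4.19), and 5.19% of 77 promoter regions (2.04 to 12.6), and the intervals overlap that of intronic regions. With those genes kept, 7 of 215 intronic regions recurred, beside 13 of 346 distal intergenic (3.76%) and 9 of 82 promoter regions (10.98%).

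The widest recurrence among the 3 regions classed as intronic in every library with a peak was in *Cpeb4* (ENSMUSG00000020300), which encodes an RNA-binding protein that controls polyadenylation in the cytoplasm. The region lay in intron 5 of 9 (chr11:31922345-31922987, 642 bp). Its score was 50.25 in wild-type replicate 1, 50.22 in wild-type replicate 2, and 51.43 in *mfn2-/-* replicate 1, and *mfn2-/-* replicate 2 had no peak. All 3 peaks stood near the bottom of their lists, at rank 217 of 226, 200 of 212, and 112 of 127, and whether the fourth library falls just under the floor there cannot be told.

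*Dpp9* (ENSMUSG00000001229) was the only strong region of this kind. Its peaks lay in intron 10 of 20 (chr17:56199879-56200427), with 88.17 in wild-type replicate 1 and 68.16 in wild-type replicate 2, at rank 6 of 226 and 24 of 212. Neither *mfn2-/-* library had a peak there. A peak that is absent from a list has no value, so the difference between genotypes in *Dpp9* could not be given a size or a test. The third region, in intron 20 of 29 of *Gtf2ird1* (ENSMUSG00000023079, chr5:134378742-134379192), a transcription factor of the TFII-I family, had 56.45 in wild-type replicate 1 and 50.06 in *mfn2-/-* replicate 1, where it was the last of 127 peaks.

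*Chl1* (ENSMUSG00000030077), a neural cell adhesion molecule of the L1 family, held the fourth region and the only one with a peak in all 4 lists (chr6:103648755-103649788). Its scores were 95.61 in wild-type replicate 1, 195.31 in wild-type replicate 2, 143.80 in *mfn2-/-* replicate 1, and 85.52 in *mfn2-/-* replicate 2. The genotypes overlapped. Only the peak of *mfn2-/-* replicate 2 was annotated to an intron (4 of 26), and the other 3, which overlap it, were annotated to an exon. The region counts as intronic through that 1 library.

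**Figure D3:**
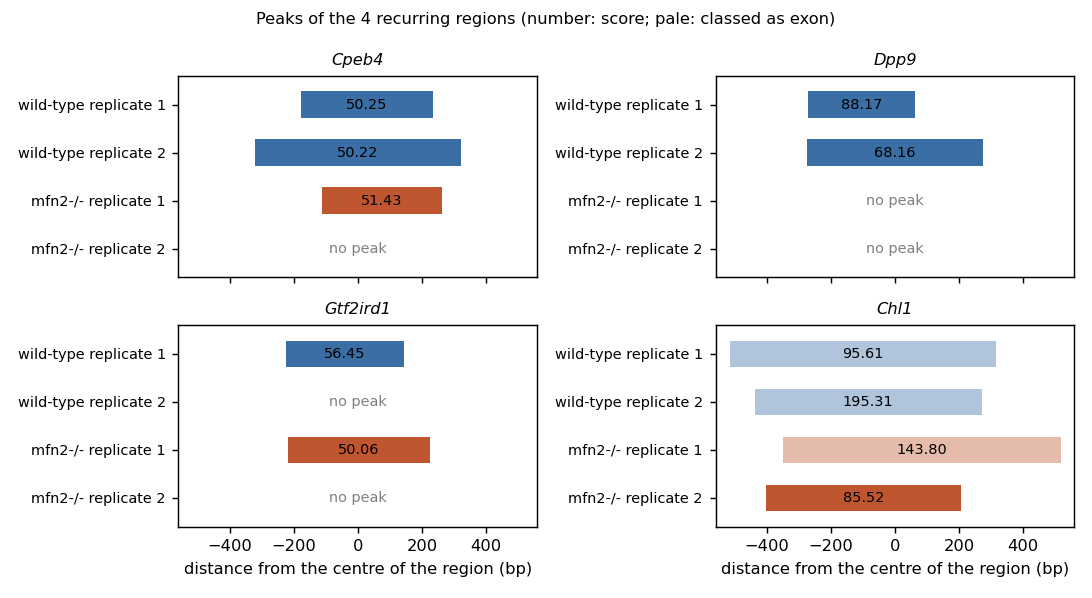
For each of the 4 regions with an intronic peak that recurred, bars give the extent of the peak in each library in bp from the center of the region, with its score, and pale bars are peaks annotated to an exon. *Cpeb4* has peaks in 3 libraries, *Dpp9* in the wild-type libraries only, *Gtf2ird1* in 1 library of each genotype, and *Chl1* in all 4.

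The host genes were long. Of the 192, 189 were matched in the RefSeq table of GRCm38.p6, and these were 180 protein-coding genes, 8 lncRNA genes, and 1 of another type. The centers of 206 of 211 peaks lay in the RefSeq span of the listed gene. For 3 peaks the listed gene was not the gene of the annotation text. The span had a median of 216 kb, against 17.1 kb over 21900 protein-coding genes, and it ran from 1.04 kb in *Olfr831-ps1*, an olfactory receptor pseudogene, to 2241 kb in *Cntnap2*, a neuronal adhesion protein of the neurexin family. A long gene offers more bases to a peak, so the plain gene is not the fair unit. Weighted by length, the middle base of all protein-coding genes lay in a gene of 138 kb. Hosts over 200 kb numbered 100 (52.9%) and held 117 of 211 peaks (55.5%), while genes of that length held 40.4% of protein-coding gene bases. Across RefSeq, 0.822% of protein-coding genes and 9.9% of those over 200 kb hosted an intronic peak.

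Per base of gene span, peaks were sparsest in short genes in all 4 libraries. Genes under 50 kb had 2.39, 2.78, 1.99, and 2.39 intronic peaks per 100 Mb of span in wild-type replicates 1 and 2 and *mfn2-/-* replicates 1 and 2. Genes over 500 kb had 8.81, 6.22, 3.63, and 8.29. The ranges of these classes did not overlap, and the order held within each library. Between them, genes of 50 to 200 kb had 5.33, 3.20, 4.00, and 4.27, and genes of 200 to 500 kb had 10.4, 7.79, 3.46, and 5.62. The density was higher in the longer of these classes in 3 of 4 libraries and not in *mfn2-/-* replicate 1. These densities are a description without a test. Exons and the promoter class take a larger part of short genes, whose peaks there are not intronic, and this part was not measured.

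**Figure D4:**
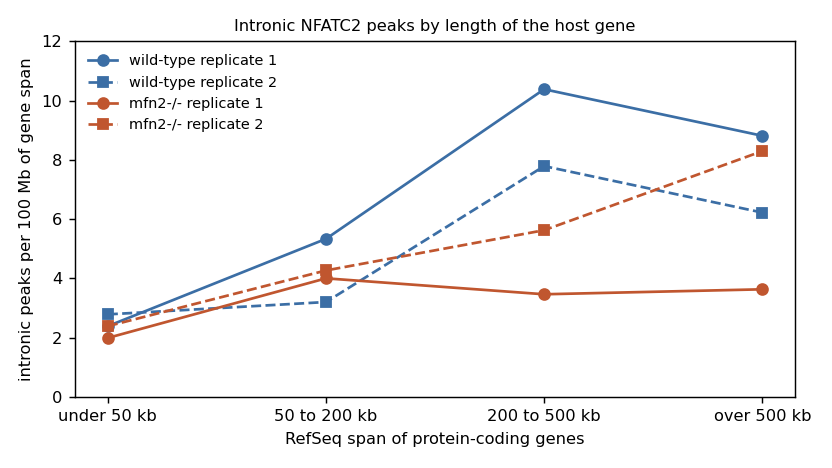
Lines give intronic peaks per 100 Mb of gene span in each library for 4 classes of protein-coding gene by RefSeq span. All 4 lines start between 1.99 and 2.78 under 50 kb and end between 3.63 and 8.81 over 500 kb.

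The hosts of *mfn2-/-* peaks had the lower median length, in a design that cannot pass a test at any size of difference. The median span per library was 266 and 237 kb in wild-type and 166 and 217 kb in *mfn2-/-*, which do not overlap. The means were 252 ± 20.8 kb (SD, n = 2) and 191 ± 36.4 kb, a difference of -60.2 kb (exact permutation p = 0.33, the smallest possible). Without *mfn2-/-* replicate 1 it was -34.5 kb, and among peaks with a score of at least 60 it was -56.7 kb with groups that overlap (exact permutation p = 0.67). Within each library, hosts of first-intron peaks were shorter than hosts of later-intron peaks, with differences in the median of -103, -2.02, -58.7, and -23.0 kb in the order used above. The mean difference was -46.7 ± 44.3 kb (SD, n = 4), with the same sign in 4 of 4 libraries (exact sign-flip p = 0.125, the smallest possible). Without wild-type replicate 1 it was -27.9 kb, and without each of the other libraries it was between -61.6 and -42.7 kb. Among peaks with a score of at least 60 it was 1.38 kb (exact sign-flip p = 1), and with the genes left out by name put back it was -24.3 kb (exact sign-flip p = 0.625).

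Some genes were hit in several libraries at different places. Over peaks of all classes, with the genes left out by name kept, 10.2% of 618 genes had a peak in 2 or more libraries. With those genes put back, intronic hosts gave 22 of 197, close to that share. Without them it was 19 of 192 (9.90%), and a share over all classes without them is not given here. Of the 19, 3 were the overlapping regions of *Cpeb4*, *Dpp9*, and *Gtf2ird1*, and 16 had peaks that did not overlap. The gap between the 2 peaks ran from 1.36 kb in *Lin7a*, a scaffold of cell junctions, to 719 kb in *Lrrc4c*, with a median of 126 kb. Only *Lin7a* and *Nrcam* (4.17 kb) had a gap under 10 kb. Of the 16 genes, 15 were over 200 kb, and their median span was 612 kb, against 200.3 kb for hosts with a peak in 1 library. The 19 genes were split into 13 with peaks in both genotypes, 5 in wild-type only, and 1, *Marchf1*, in *mfn2-/-* only.

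Among these 16, both peaks lay in the same intron in 4 genes. *Ext1*, a glycosyltransferase of heparan sulfate synthesis, had peaks in intron 1 of 10 with scores of 61.15 in wild-type replicate 2 and 51.07 in *mfn2-/-* replicate 2, 91.8 kb apart. *Rora*, a nuclear receptor, had them in intron 1 of 10 with 57.63 in wild-type replicate 2 and 51.64 in *mfn2-/-* replicate 2, 184 kb apart. *Nlgn1*, a postsynaptic adhesion protein, had them in intron 3 of 5 with 62.11 in wild-type replicate 1 and 53.35 in *mfn2-/-* replicate 1, 227 kb apart. *Slit2*, an axon guidance ligand, had them in intron 4 of 5 with 57.88 in wild-type replicate 2 and 52.20 in *mfn2-/-* replicate 2, 41.2 kb apart. In all 4 genes the wild-type score was the higher, but scores were not scaled for depth and lie at different sites.

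Of the other genes in this group, *Gphn*, the anchor of inhibitory receptors at synapses, had 69.36 in intron 1 of 23 in wild-type replicate 1 and 58.35 in intron 3 in *mfn2-/-* replicate 1. *Adamts3*, a protease of procollagen, had 50.87 in wild-type replicate 1 and 60.35 in *mfn2-/-* replicate 2. *Marchf1*, a ubiquitin ligase, had 52.17 and 60.08 in *mfn2-/-* replicates 1 and 2, 137 kb apart in an 855 kb gene. *Adgrl3*, an adhesion receptor of the latrophilin family, had 50.54 and 58.02 in wild-type replicates 1 and 2. Another 2 long genes, *Csmd3* and *Pde4b*, had 2 peaks each within wild-type replicate 1 alone.

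Shared hosts were counted for each pair of libraries, which had 68, 52, 36, and 56 hosts in the order used above. The wild-type libraries shared 6 host genes and the *mfn2-/-* libraries 1. Wild-type replicate 1 shared 6 with *mfn2-/-* replicate 1 and 1 with *mfn2-/-* replicate 2, and wild-type replicate 2 shared 2 and 5 with them. Across genotypes, libraries with the same replicate number thus shared 6 and 5 hosts and those with different numbers 1 and 2, and the labels do not say what a number stands for. Genes of the peaks of other classes, without the genes left out by name, gave 4 and 5 for the same number and 3 and 5 for different numbers, and 8 and 7 within wild-type and *mfn2-/-*. These counts were not tested and not scaled for the length of the lists.

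**Figure D5:**
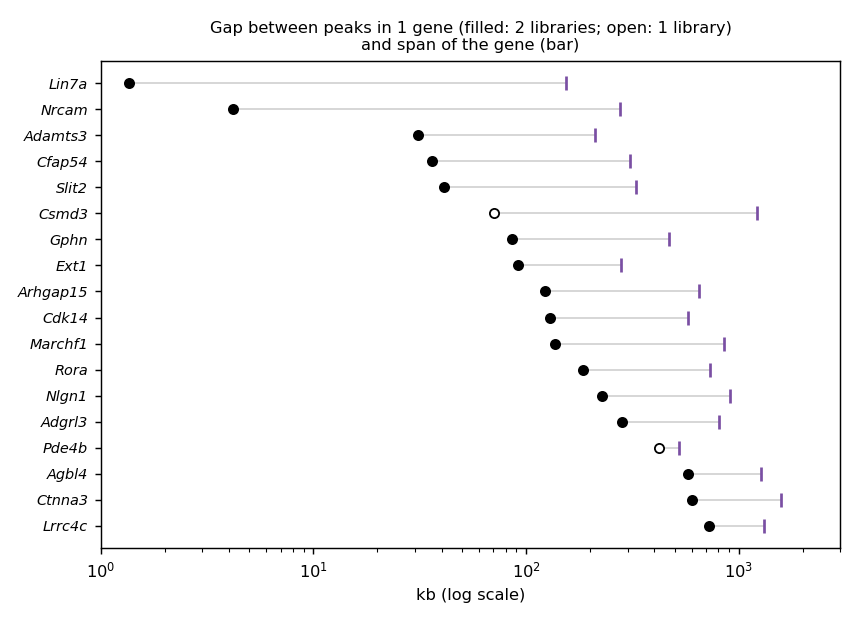
For the 18 host genes with 2 intronic peaks that do not overlap, points give the gap between the peaks and bars the RefSeq span of the gene, in kb on a log axis. Filled points are peaks of 2 libraries and open points (*Csmd3* and *Pde4b*) peaks of 1 library, and only *Lin7a* and *Nrcam* have a gap under 10 kb.

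Genes of NFAT signaling itself hosted no intronic peak. Against the background of 0.822% of protein-coding genes, none of 40 genes of NFAT and calcium signaling, such as calcineurin subunits, regulators of calcineurin, and store-operated calcium channels, was a host. Their summed span was 4.03 Mb, so at the overall density of 19.2 peaks per 100 Mb of span under 1 peak would fall there, and a count of 0 says little. The same held for 35 genes of mitochondrial dynamics and biogenesis, with 0 hosts in 4.28 Mb. *Mfn2* and *Nfatc2* had no peak of any class, and *Hif1a* had 8 peaks, of which 0 were intronic.

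The 3 lists of contractile genes, myogenic regulators, and hypoxia genes gave 5 hosts, each with 1 peak. Of 45 contractile and excitation-contraction genes, 2 (4.44%) were hosts, both in wild-type replicate 1. These were *Cacna2d1*, an accessory subunit of the muscle calcium channel, with 56.23 in intron 7 of 38 (chr5:16251251-16251886), and *Utrn*, the dystrophin homolog utrophin, with 55.03 in intron 2 of 73. Of 39 myogenic and satellite cell regulators, 2 (5.13%) were hosts, both in wild-type replicate 2, *Eya4*, a transcriptional coactivator, with 50.37 and the adhesion molecule *Ncam1* with 53.60. Of 44 genes of hypoxia and glycolysis, 1 (2.27%) was, *P4ha1*, a subunit of the collagen prolyl hydroxylase, with 57.31 in intron 9 of 14 in wild-type replicate 2 (chr10:59358900-59359440). All 5 of these genes had their peak in wild-type lists, which also held 70 and 52 of the 214 peaks. This holds for these lists only, since *Cdon*, also known for a role in myogenic differentiation and not on them, had its peak in *mfn2-/-* replicate 1 (63.42). These shares stand beside 0.822% over all protein-coding genes, on counts of 1 and 2. In units of span these lists had 28.9, 62.1, and 54.95 peaks per 100 Mb, from 2, 2, and 1 peaks, against 19.2 overall.

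Among the gene lists, those of long neuronal genes gave the largest counts. The lists were chosen with earlier results of these data known, so their shares are a description and not independent support. The list of 61 genes of synaptic adhesion and axon guidance had a median span of 929 kb. Of these genes, 13 (21.3%) were hosts of 18 peaks. The list of 55 genes for ion channels and neurotransmitter receptors had a median span of 379 kb. Of these genes, 8 (14.5%) were hosts of 8 peaks. The share over all genes longer than 200 kb was 9.9%. By length class it was 7.47% from 200 to 500 kb and 18.1% over 500 kb. The adhesion list thus stood close to genes over 500 kb. The channel and receptor list, whose median span falls in the class of 200 to 500 kb, stood above the share of that class, on 8 hosts. Per base the differences were smaller. The adhesion list had 31.1 and the channel and receptor list 33.9 peaks per 100 Mb of span. Genes of 200 to 500 kb had 27.3 and genes over 500 kb 27.0. Beside *Nlgn1*, *Slit2*, and *Chl1*, the adhesion hosts included *Cntn5*, a contactin, with 57.99 in intron 2 of 20 in wild-type replicate 1, and *Cntnap2* with 51.24 in intron 1 of 23 in wild-type replicate 2. *Magi2*, a synaptic scaffold, had 57.03 and *Tenm2*, a teneurin, had 55.27, both in *mfn2-/-* replicate 2. *Sgcz*, with 56.55 in wild-type replicate 2, does not do what the name of the list says, since it encodes a sarcoglycan of the dystrophin-associated complex.

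The adhesion hosts numbered 6 and 5 for wild-type and 1 and 5 for *mfn2-/-*, which overlap. The channel and receptor hosts numbered 1 and 1 in wild-type and 2 and 4 in *mfn2-/-*, which do not, on very small counts and without a test. Hosts of all protein-coding kinds numbered 65 and 49 against 35 and 51. *Cacna2d1*, also a channel subunit, was counted in the contractile list, and with it the numbers are 2 and 1 against 2 and 4, which overlap. They were *Cacnb4* (76.91) and 1 other gene in *mfn2-/-* replicate 1. In *mfn2-/-* replicate 2 they included *Cacna2d3*, a calcium channel subunit, with 58.44 and *Kcnh7*, a potassium channel, with 57.24. Of 30 markers of endothelial, immune, fibro-adipogenic, and Schwann cells, 1 was a host, *Dcn* (decorin), with 56.30 in intron 7 of 7 in *mfn2-/-* replicate 2. This is 3.33% of the list against the background of 0.822%, and 70.6 peaks per 100 Mb of span, from a single peak in 1.42 Mb. A peak is a measure of occupancy and not of expression, so these counts do not tell which cells the chromatin came from.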

How the data were processed

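NFATC2 ChIP-seq peaks were read from 4 deposited lists, 2 per genotype, with genotype and replicate taken from the labels. The authors called peaks in each library separately and deposited a score per peak, 10 times -log10 of the p-value, not scaled for depth. The submitters' processing notes name BWA 0.7.5, MACS, deepTools 3.5.0, and mm10. The MACS version and control library are not given in the sources used here. Coordinates are as deposited. Introns, intron numbers, and host genes are the authors' annotation. Gene spans, starts, and promoter windows came from RefSeq tables of GRCm38.p6, the same assembly as mm10. The promoter table is not complete.

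The members and gene lists were chosen with earlier results of these data known. Each library gave 1 value per measure, compared by exact permutation over 6 splits, or within libraries by exact sign flips. Peaks overlapping by at least 1 bp formed a region. Shares carry 95% Wilson intervals. The code was tested on simulated data. Alternatives were a score of at least 60, the named genes put back, merging within 1 kb, a reciprocal overlap of 50%, removal of 1-intron transcripts, the gene of the annotation text, leaving out each library, and the replicate block. Leaving out the *Chl1* region and counting only peaks classed as intronic were added after seeing the data, as was leaving the named genes out of the other classes of peak.

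Named genes are hosts of recurring regions, hosts in 2 or more libraries or with 2 peaks in 1, the 3 highest-scoring per library, members of the gene lists with a peak, *Hif1a*, *Mfn2*, and *Nfatc2*, the top first-intron and later-intron gene per library, and the longest and shortest host. The rule met 57 genes and gave 40 to name, those with priority or the highest scores, of which 1 is not reported here. *Utrn*, *Eya4*, *Ncam1*, *Nrcam*, *Lrrc4c*, *Cfap54*, *Pde4b*, and further names in the plot of gaps are among the 57 but not the 40. *Dis3l2*, *F13a1*, *Tex11*, and the promoter genes *Gm41909* and *Gm30489* fall outside the rule. All of these were picked with their values known. The software was Python 3.11.15 with numpy 2.4.6, pandas 2.3.3, and scipy 1.17.1, and plots matplotlib 3.10.9.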

Additional observations from a re-analysis of the deposited data

How the results depend on the processing

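Of 89 alternative values over 11 results, 9 changed sign and 8 counts moved by over 1.5 times. The other 72 kept the sign of a difference, or stayed within 1.5 times of a count, but several differences changed in size. The lower share of first introns in *mfn2-/-* kept its direction in every alternative run, from -17.2 to -9.27 percentage points without 1 library, -13.3 at a score of at least 60, and -10.05 with the genes left out by name put back. At a score of at least 60, the difference in the share of peaks in introns (*mfn2-/-* minus wild-type) turned from 3.81 to -10.1 percentage points, the difference in median score from -0.0575 to 3.36, and the difference in host span between first and later introns from -46.7 to 1.38 kb. Recurring regions with an intronic peak then numbered 2 of 38, and hosts in 2 or more libraries 1 of 38. With the genes left out by name put back, 7 of 215 regions recurred. With them also taken out of the distal intergenic peaks, the intronic minus distal intergenic median score turned from -0.41 to 0.0125. Fewer peaks are left at the higher score, and the cause of these changes was not tested.

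Without 1 library, the difference in the share of peaks in introns ranged from 0.591 to 7.04 percentage points, and in the number of intronic peaks from -0.74 to -0.11 on the log2 scale. The difference in median score ranged from -0.745 to 0.63, and it was 0.63 without wild-type replicate 2 and 0.0375 without *mfn2-/-* replicate 1. The intronic minus distal intergenic median score ranged from -1.22 to 0.572, and it was 0.572 without *mfn2-/-* replicate 1. First minus later introns in score ranged from -0.487 to 0.647, with -0.487 without wild-type replicate 2 and -0.143 without *mfn2-/-* replicate 1. Recurring regions ranged from 2 to 3, with 2 without wild-type replicate 1. Hosts in 2 or more libraries ranged from 8 to 12, with 8 without either wild-type library and 12 without either *mfn2-/-* library, where fewer libraries are left to share. A lone library in a group was assigned no test.

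The replicate block gives the same mean differences (-13.2 percentage points for first introns, from -11.7 and -14.7 in the pairs) with an exact sign-flip p of 0.5, the smallest 2 pairs allow, and changed no call. Deviations of same-numbered libraries could not be correlated, because only 1 region with an intronic peak has a peak in all 4 lists. The counts of shared hosts across genotypes (6 and 5 for same numbers, 1 and 2 for different numbers) were not matched by the other classes of peak (4 and 5 against 3 and 5), and the labels give nothing but the number. Without read counts, a peak missing from a list and a peak just under its floor cannot be told apart.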

Other observations

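The density of intronic peaks varied between chromosomes, and those named here were picked with their values known. Chromosome X held 1 of 214 intronic peaks (0.467%), in *Tex11*, a meiosis gene, against 9 of 365 distal intergenic peaks (2.47%) and 4.38% of protein-coding gene bases. Chromosome 10 held 21 intronic peaks, or 38.9 per 100 Mb of protein-coding gene span. Chromosome 16 held 3, or 5.03 per 100 Mb, with 3.78% of protein-coding gene bases, while it held 22 distal intergenic peaks. The density over all chromosomes was 19.2 per 100 Mb. These counts are values without a test.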
